A study of Homo sapiens with 3 samples.

Results

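The E2F and DP genes encode transcription factors that switch genes of the step from G1 into S phase on or off. All probe sets whose platform annotation names exactly 1 of the symbols E2F1 to E2F8, TFDP1 and TFDP2 were taken. They numbered 22 of 54675 on the array and covered all 10 genes, with 1 to 4 probe sets a gene. The family was read in U2OS cells, a human osteosarcoma line, harvested 5 days after transduction with a retrovirus. One virus carried wild-type Set8b (labelled Wt-Set8b), another carried stable Set8b (labelled Set8_deltaPIP2), a mutant that the CRL4-Cdt2 ubiquitin ligase does not degrade, and the control was the empty pMSCV vector. Set8b is the enzyme that puts 1 methyl group on lysine 20 of histone H4. There were 3 arrays, 1 for each construct. Differences between them therefore have no replicate check, no test was possible and no p-value is given.

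An E2F protein binds DNA as a dimer with a DP protein. E2F1, E2F2 and E2F3 are the activators: they switch on genes of DNA replication once cyclin-dependent kinases release them from the retinoblastoma protein. E2F4 and E2F5 work mostly as repressors bound to the pocket proteins p107 and p130, and E2F6 represses without a pocket protein, together with Polycomb proteins. E2F7 and E2F8 are atypical repressors that bind DNA without a DP partner. Several of these genes are themselves E2F targets, so that their own transcription follows the cell cycle.

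Promoters of the members were searched for exact matches to E2F motifs, so a window without a match may hold other E2F sequences. RefSeq promoter windows (GRCh38.p14, from 250 bases before to 50 after a start site) matched 8 of the 10 genes in 11 windows, and E2F5 and E2F8 were not matched. TTTCGCGC, TTTGGCGC, TTTCCCGC, TTTGCCGC and GGCGGGAA were searched on both strands. TTTCCCGC and GGCGGGAA can overlap on opposite strands. At least 1 of the 5 was found at E2F1, E2F2, TFDP1 and 1 of the 2 windows of E2F3, and 5.58% of all 35116 windows held one. TTTCGCGG and TTGGCGC, the latter contained in TTTGGCGC, were added after the promoters of the activators had been seen. They occurred in 0.416% and 3.04% of all windows. A match is a run of letters and not a measured binding site.

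The 4 windows that held a motif of the first search are printed 5′ to 3′ on the gene's strand, with every match of the 7 motifs in capitals. They lie at chr20:33686336-33686635 (E2F1, minus strand), chr1:23531184-23531483 (E2F2, minus strand), chr6:20401629-20401928 (E2F3, plus strand) and chr13:113584503-113584802 (TFDP1, plus strand).
E2F1: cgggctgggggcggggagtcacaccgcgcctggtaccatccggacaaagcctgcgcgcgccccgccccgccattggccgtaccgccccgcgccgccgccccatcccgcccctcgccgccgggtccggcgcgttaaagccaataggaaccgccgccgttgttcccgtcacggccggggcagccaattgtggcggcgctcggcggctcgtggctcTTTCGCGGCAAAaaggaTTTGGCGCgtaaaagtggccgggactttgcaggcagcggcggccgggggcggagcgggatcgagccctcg
E2F2: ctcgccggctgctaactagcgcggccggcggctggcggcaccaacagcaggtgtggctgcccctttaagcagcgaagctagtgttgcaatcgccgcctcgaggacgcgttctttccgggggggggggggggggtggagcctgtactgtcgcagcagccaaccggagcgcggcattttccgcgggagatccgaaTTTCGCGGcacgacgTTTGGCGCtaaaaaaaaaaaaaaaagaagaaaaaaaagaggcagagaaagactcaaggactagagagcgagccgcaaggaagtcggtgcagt
E2F3: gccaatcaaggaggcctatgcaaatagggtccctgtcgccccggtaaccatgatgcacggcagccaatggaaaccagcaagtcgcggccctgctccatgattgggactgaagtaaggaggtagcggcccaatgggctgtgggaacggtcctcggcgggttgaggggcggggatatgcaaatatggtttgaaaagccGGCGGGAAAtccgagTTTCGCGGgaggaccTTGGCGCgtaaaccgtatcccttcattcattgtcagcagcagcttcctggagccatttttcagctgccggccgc
TFDP1: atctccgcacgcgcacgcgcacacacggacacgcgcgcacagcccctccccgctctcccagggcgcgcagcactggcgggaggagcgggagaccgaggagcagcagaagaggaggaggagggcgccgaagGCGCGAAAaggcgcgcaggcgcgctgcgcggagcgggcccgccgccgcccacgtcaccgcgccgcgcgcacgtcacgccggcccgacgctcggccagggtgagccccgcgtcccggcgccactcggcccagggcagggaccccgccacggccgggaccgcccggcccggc

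The 3 activator promoters share a pair of elements close to the start site. TTTCGCGG was followed on the same strand by TTGGCGC, with 18 bases between their first letters at E2F1, 16 at E2F2 and 15 at E2F3. With up to 40 bases allowed, 3 of 35116 windows held this pair, namely these 3, on which the pair had been defined. With the shorter letters TTTCGCG and TTGGCG, in either order and on either strand, 25 windows held both within 40 bases. In TFDP1 the single match was TTTCGCGC on the opposite strand, at positions -120 to -113 counted from 0 at the first transcribed base. E2F7 held TTGGCGC on its opposite strand, at -133 to -127, and none of the other motifs. E2F4, E2F6, TFDP2 and the other window of E2F3 held none of the 7 motifs.

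**Figure D1:**
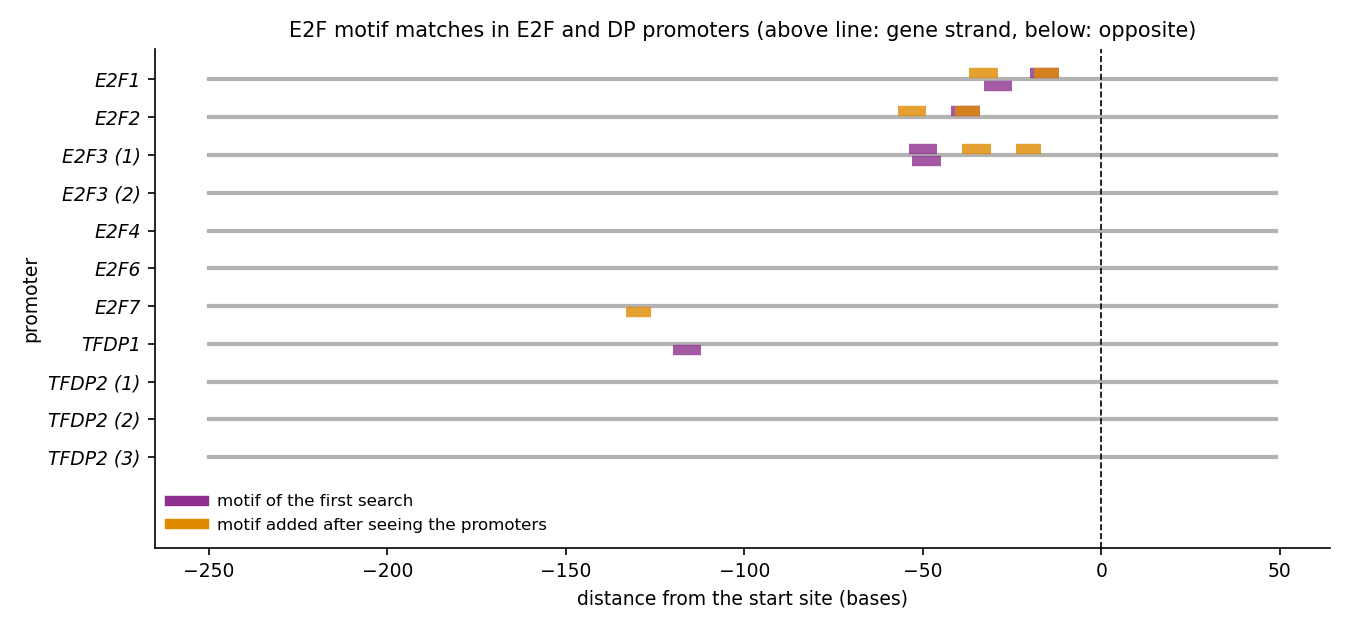
Matches of the 7 motifs in the 11 promoter windows of 8 E2F and DP genes, plotted by distance from the start site in bases. Bars above a line lie on the gene's strand and bars below it on the opposite strand, and darker orange marks an overlap. In E2F1, E2F2 and E2F3 the matches lie between -57 and -13, and in TFDP1 and E2F7 farther from the start site.

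Signals are given after quantile normalization of the deposited intensities, with values under the 20th percentile set to that level, 7.7. A probe set counted as past the filter on dim signals where its mean log2 signal lay at or above the median of all probe sets, a signal of 37.0. Of the 22 probe sets 18 passed, and all 10 genes had at least 1. The brightest probe set stood for each gene, and 12631 genes were compared in all. The SD between probe sets of 1 gene on the same arrays stood in for an error. It was 0.44 log2 for stable Set8b over vector, 0.47 when wild-type Set8b was the reference and 0.41 for wild-type Set8b over vector, over 5952 genes. This SD holds no spread between replicate arrays, since each construct has 1 array. Whether the probe sets of a gene read the same transcripts was not analysed, so it may hold more than the noise of probes. Precision is limited by having so few arrays.

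The labels could not be checked by the transduced gene. The 4 probe sets of KMT5A, the gene of Set8, did not move together and ranged from -0.76 to 0.90 log2 for stable Set8b over vector and from 0.18 to 1.23 for wild-type Set8b over vector. Whether they read the transgene was not analysed here. The 27 poly-A spike-in probe sets, RNAs added during labelling, had median ratios to the vector array of 0.463 with stable and 0.453 with wild-type Set8b. The 16 hybridisation spike-in probe sets had median ratios of 0.802 with stable and 1.009 with wild-type Set8b. The part of these spike-in differences in the results was not tested. Of the mesenchymal markers VIM, COL1A1 and SPARC read 5773 or higher on every array, RUNX2 read 540.1 to 894.2 and ALPL 37.7 to 91.8. COL1A2 was below the filter, and BGLAP, also listed, had no probe set that named it alone. Of 5 leukocyte markers 2 passed the filter, CD3D at 76.0 to 200.3 and CD79A at 99.6 to 183.9, while PTPRC, CD14 and LYZ read 7.7 to 33.0. Of the epithelial markers EPCAM read 169.2 to 431.0, KRT14 52.6 to 111.0, CDH1 17.8 to 78.6 and KRT5 7.7 to 29.4.

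Of the whole family, 2 of 10 genes were at least 2-fold lower with stable Set8b than with the vector, against 5.11% of all genes, and 0 were at least 2-fold higher, against 5.74%. The 2 were E2F8 and E2F2. The median log2 difference of the 10 genes was -0.44, beside -0.003 over all genes. By probe set, 4 of the 18 past the filter were at least 2-fold lower, against 5.35% of all probe sets with 1 symbol, and 2 of these 4 belonged to TFDP1. With wild-type Set8b over vector 0 of 10 genes passed 2-fold in either direction, where 1.05% of all genes were lower and 1.67% higher. The 4 probe sets below the filter belonged to E2F2, E2F5 and TFDP2.

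**Figure D2:**
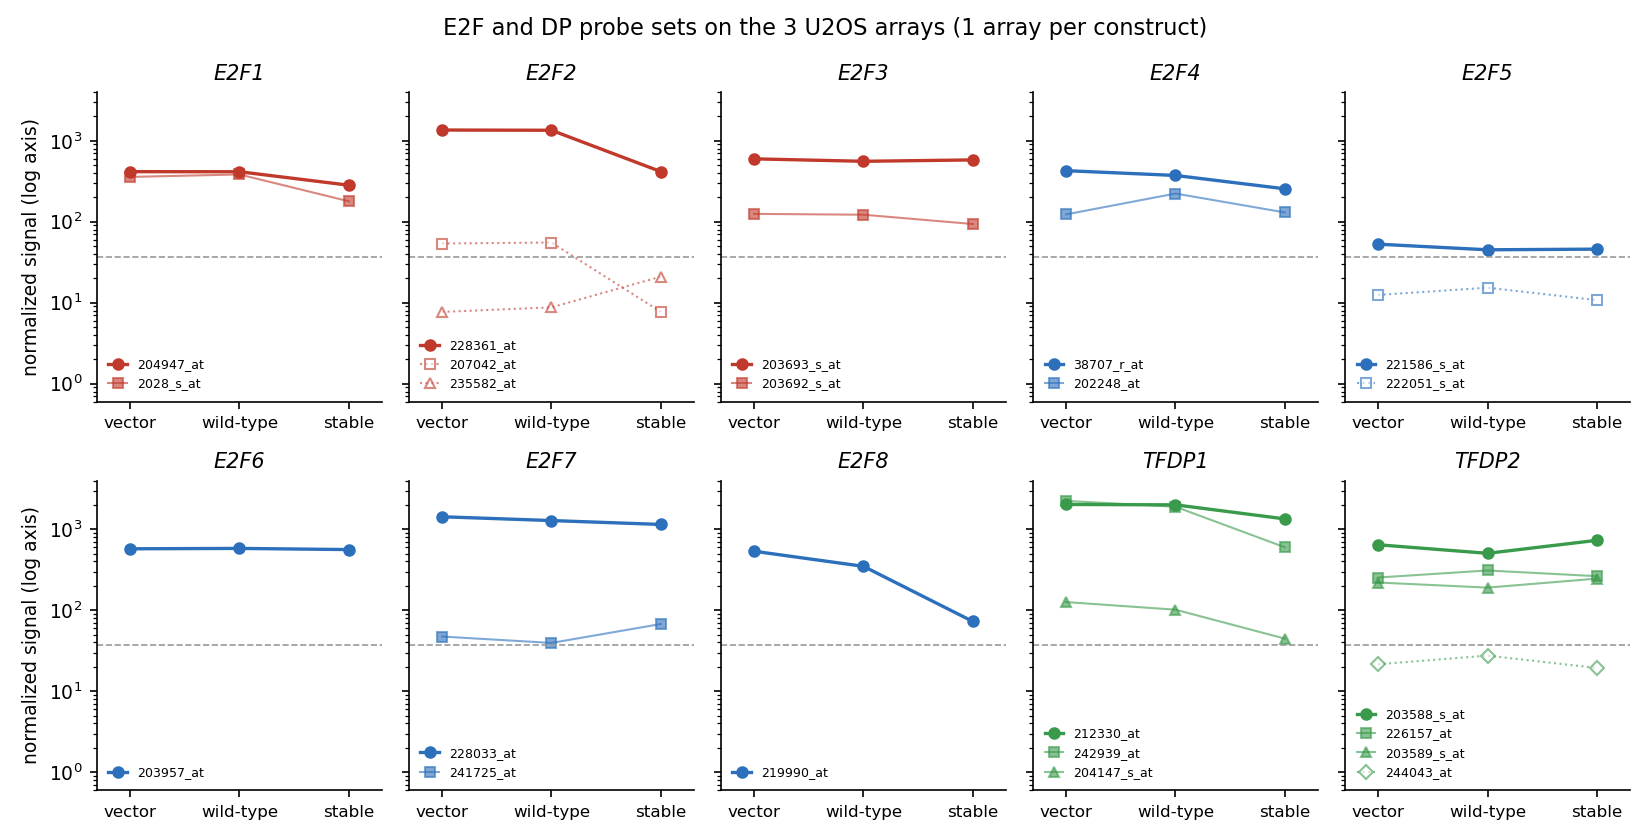
Normalized signal (log axis) of the 22 E2F and DP probe sets on the vector, wild-type Set8b and stable Set8b arrays, 1 point per array, with activators in red, repressors in blue and DP partners in green. Thick lines are the brightest probe set of a gene, open symbols are probe sets below the filter, and the dashed line is the filter level of 37.0. The lines of E2F8, the brightest probe set of E2F2 and all probe sets of TFDP1 go down at stable Set8b, while E2F6 stays between 561 and 580.

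Among the activators, E2F2 stood out. Its brightest probe set read 1357 under vector, 1348 under wild-type Set8b and 415.8 under stable Set8b. The vector and wild-type arrays were level, at a log2 difference of -0.01, and the stable Set8b array alone was low. This was 3.26-fold lower than with vector and 3.24-fold lower than with wild-type Set8b, a log2 difference of -1.71 and -1.70. The size exceeded the SD between probe sets. E2F2 ranked 116 from the lowest of 12631 genes for stable Set8b over vector. The other probe sets of E2F2 were below the filter. Of these, the brighter read 53.8 under vector, 55.4 under wild-type Set8b and 7.7, the floor, under stable Set8b. The third went the other way and read 7.7, the floor, 8.77 and 21.0 in the same order. Signals this low may be background, so neither adds to the value of the brightest one.

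E2F1, which also induces genes of cell death, was read by a pair of probe sets, both past the filter. On the brighter it gave 415.3 under vector, 414.5 under wild-type Set8b and 282.5 under stable Set8b. On the dimmer the signals were 357.5, 383.6 and 178.8 in the same order. Both were low on the stable Set8b array and nearly level between the other arrays. The log2 differences of stable Set8b from vector were -0.56 on the brighter and -0.9997, just short of 2-fold, on the dimmer. Against wild-type Set8b they were -0.55 and -1.10, so E2F1 passed 2-fold there by 1 of its probe sets and not by the brighter one.

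E2F3 differed less than E2F1 and E2F2. Its brighter probe set read 597.8 under vector, 557.6 under wild-type Set8b and 580.0 under stable Set8b. The dimmer one read 125.0, 122.1 and 93.7. The differences of stable Set8b from vector were -0.04 and -0.42 log2, both within the SD between probe sets. E2F3 sat at percentile 46.8 of all genes for stable Set8b over vector, while E2F1 sat at 15.6 and E2F2 at 0.918. So the activator promoters that share the pair of elements belonged to genes with differences of -1.71, -0.56 and -0.04. E2F3 has another window, without a match, and which transcript its probe sets read was not analysed here.

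Among the repressors, E2F8 was the lowest of the family with stable Set8b. Its single probe set read 535.0 under vector, 348.4 under wild-type Set8b and 72.6 under stable Set8b. The signal was lower with wild-type Set8b than with vector and lower again with stable Set8b. The log2 difference of stable Set8b was -2.88 from vector and -2.26 from wild-type Set8b, and E2F8 ranked 11 and 27 from the lowest of 12631 genes. With wild-type Set8b over vector it was -0.62, 1.53-fold lower, at percentile 4.41, and this was the lowest of the 10 genes in that comparison. No other probe set of E2F8 was on the array, so its values have no check by a second one.

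E2F7, the other atypical repressor and a known target of p53, did not share the pattern of E2F8. Its brighter probe set read 1427 under vector, 1281 under wild-type Set8b and 1146 under stable Set8b, and the stable Set8b array was at -0.32 log2 from vector. The dim one read 47.3, 39.5 and 67.6, a difference of 0.51. The direction of E2F7 is therefore not settled. With the mean of both probe sets it was at 0.10 for stable Set8b over vector. No probe set of E2F7 passed 2-fold.

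E2F4 and E2F5, the partners of p107 and p130, were within 2-fold. For E2F4, the brighter probe set read 427.2 under vector, 372.9 under wild-type Set8b and 255.0 under stable Set8b, a difference of -0.74 for stable Set8b over vector. Its other probe set read 123.2, 222.9 and 130.2, with the highest signal on the wild-type Set8b array and a difference of 0.08. Both were lower with stable than with wild-type Set8b, at -0.55 and -0.78. E2F5 was dim throughout. Its brighter probe set read 52.8, 45.0 and 45.9, and its other one, below the filter, read 12.5, 15.3 and 10.8, so both were at -0.20 and -0.21 for stable Set8b over vector.

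E2F6, the Polycomb-linked repressor, was level on all arrays. Its single probe set read 573.9 under vector, 580.1 under wild-type Set8b and 561.0 under stable Set8b. The difference of stable Set8b was -0.03 from vector and -0.05 from wild-type Set8b. It was the smallest in size of the 10 genes for stable Set8b over vector.

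The DP partners differed from each other. TFDP1 was lower with stable Set8b on all of its 3 probe sets, by unequal amounts. The brightest read 2024 under vector, 2002 under wild-type Set8b and 1342 under stable Set8b. The next read 2241, 1897 and 598.6, and the dimmest read 126.1, 101.6 and 44.6. The log2 differences of stable Set8b from vector were -0.59, -1.90 and -1.50, and from wild-type Set8b -0.58, -1.66 and -1.19. So TFDP1 did not count as 2-fold lower by the brightest probe set and did by each of the others. With the mean over its probe sets it was at -1.33 over vector and -1.14 over wild-type Set8b.

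TFDP2 was not lower. Its brightest probe set read 643.3 under vector, 504.5 under wild-type Set8b and 730.1 under stable Set8b. It was the highest member for stable Set8b over vector, at 0.18 log2, and for stable over wild-type Set8b, at 0.53. Of the others, the brightest read 253.5, 309.7 and 263.4, the next 220.0, 190.2 and 245.8, and the dim one 21.5, 27.5 and 19.4. The 4 probe sets of TFDP2 lay between -0.15 and 0.18 for stable Set8b over vector. They lay on both sides of 0 for stable over wild-type Set8b, between -0.51 and 0.53.

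**Figure D3:**
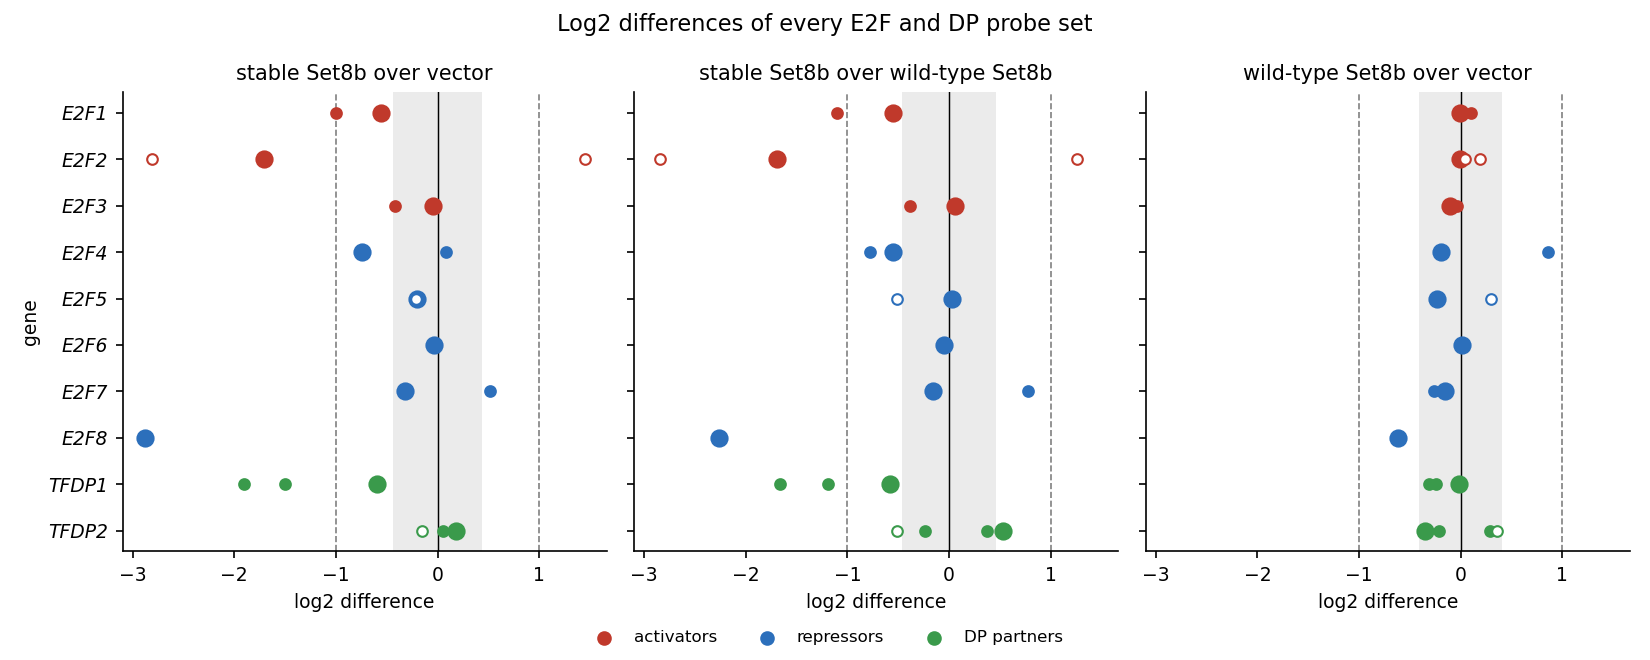
Log2 differences of all 22 E2F and DP probe sets in the 3 comparisons, by gene. Large points are the brightest probe set of a gene, open points are below the filter, dashed lines mark 2-fold and the grey band is plus or minus 1 SD between probe sets of a gene. Of the probe sets past the filter, E2F8, the brightest of E2F2 and 2 of the 3 of TFDP1 lie left of the 2-fold line for stable Set8b over vector. The open points of E2F2 lie beyond both lines there, at -2.81 and 1.45.

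Set beside each other, activators and repressors had members at both ends. For stable Set8b over vector the 3 activators ranged from -1.71 to -0.04 with a median of -0.56, and the 5 repressors from -2.88 to -0.03 with a median of -0.32. In each group 1 gene was at least 2-fold lower, where 5.11% of all genes were, and the ranges overlapped, so the roles were not separated. For stable over wild-type Set8b the medians were -0.55 and -0.16, and 2 of the 10 genes, E2F8 and E2F2 again, were at least 2-fold lower, where 5.23% of all genes were lower and 4.96% higher. Both comparisons use the same stable Set8b array. For wild-type Set8b over vector the medians were -0.01 for activators and -0.20 for repressors, beside 0.01 over all genes. The DP partners, 2 genes, had medians of -0.21, -0.02 and -0.18 in the same order of comparisons, from TFDP1 and TFDP2 at different values.

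From the lowest to the highest difference of stable Set8b from vector, the order by the brightest probe sets was E2F8, E2F2, E2F4, TFDP1, E2F1, E2F7, E2F5, E2F3, E2F6 and TFDP2. E2F8 and E2F2 were separated from each other and from E2F4 by more than the SD between probe sets. From E2F4 on, neighbours in this order differed by less than it. With the mean over the probe sets of a gene TFDP1 came next after E2F2, at -1.33, a gap of 0.37 that lies within that SD, while E2F4 moved to -0.33 and E2F7 to 0.10. E2F8 and E2F2 were the lowest by either measure.

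**Figure D4:**
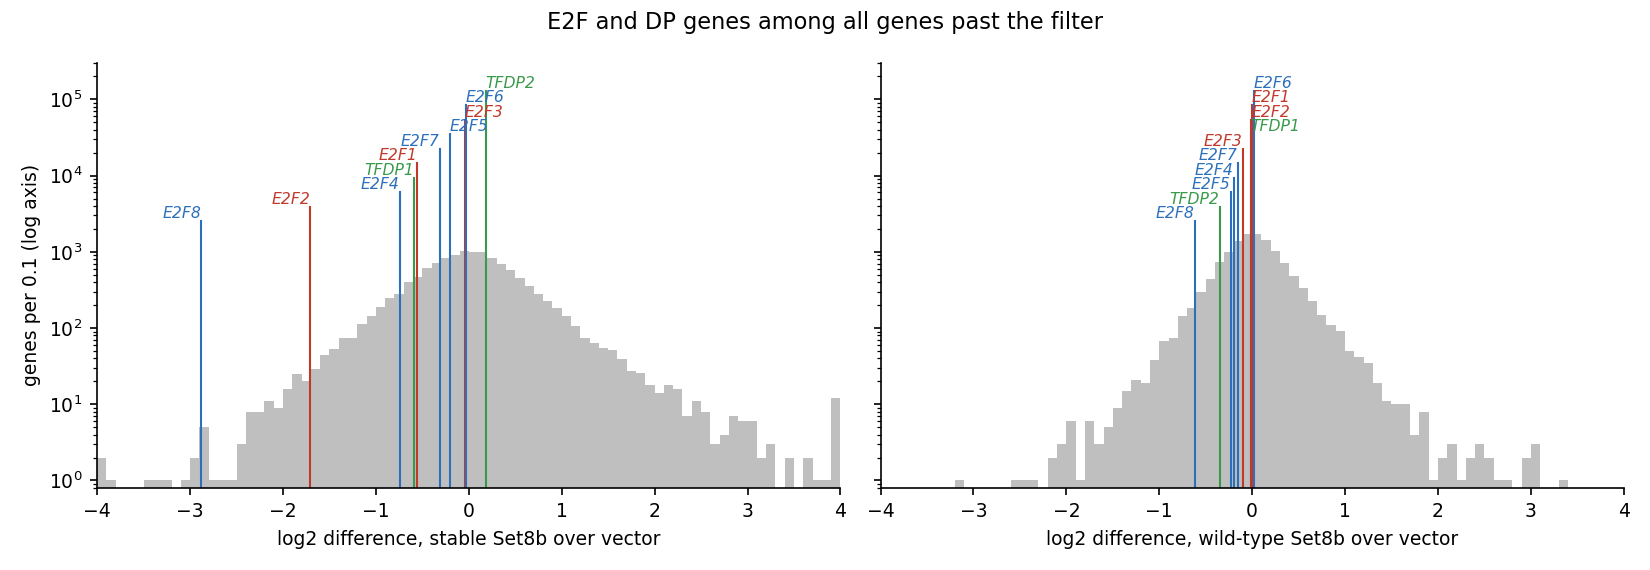
Number of genes per 0.1 log2 (log axis) among the 12631 past the filter, for stable Set8b over vector on the left and wild-type Set8b over vector on the right, with differences beyond 4 in size added to the outermost bars. Vertical lines mark the 10 E2F and DP genes by their brightest probe sets, and their heights carry no value. E2F8 and E2F2 lie in the lower tail on the left, and the 10 genes lie between -0.62 and 0.02 on the right.

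Genes nearest to E2F8 in pattern were sought over the 3 arrays by the distance between their log2 differences from vector. The 5 nearest were CRISPLD1, MBOAT1, SEC31B, the growth factor gene FGF9 and the transcription factor gene IKZF2, at distances of 0.08 to 0.22 log2. CRISPLD1 read 589.1 under vector, 405.2 under wild-type Set8b and 79.4 under stable Set8b. The other 4 had stable Set8b signals between 16.5 and 34.6, below the filter level, so their differences are less certain than that of E2F8. With 3 arrays such a likeness rests on 2 differences per gene.

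The pocket proteins and the MuvB core, which hold E2F target genes silent in resting cells, were measured in 7 of 8 listed genes. Of these, 1 was at least 2-fold lower with stable Set8b over vector, where 5.11% of all genes were, 0 were higher, and the median was -0.74. It was RBL1, the gene of p107 and an E2F target itself, which read 135.3 under vector, 134.4 under wild-type Set8b and 63.3 under stable Set8b. Its 3 probe sets lay between -1.99 and -0.69. Among the brightest 25% of probe sets RBL1 was left out and 0 of 5 genes passed 2-fold, and without _x_at and _s_at probe sets, which can read several transcripts, RBL1 and RBBP4 did, 2 of 6. The MuvB subunit LIN54 was at -0.79, LIN52 at -0.78 and RBBP4 at -0.74, though LIN52 and RBBP4 each had a probe set at -0.09 and -0.08. RB1, the retinoblastoma gene, read 285.2, 230.1 and 263.4, with no clear order. It is named here, as are CDKN2A and CCNE1, after its values were seen.

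The kinases and inhibitors upstream of the retinoblastoma protein went both ways. Of 11 measured genes 1 was at least 2-fold lower, close to the 5.11% of all genes, and 2 were higher, where 5.74% of all genes were, and the median was -0.07. With the mean over probe sets 2 were lower, CDKN1B and CDK2, and without a filter 2 were, CDKN1B and CDKN2B. CDKN1A, which encodes the kinase inhibitor p21, read 1051 under vector, 1892 under wild-type Set8b and 6593 under stable Set8b. It was lowest where E2F8 was highest, and a link between them was not tested. CCND1, cyclin D1, was at 1.64 over vector, CDKN1B, the inhibitor p27, at -1.73, and CDK2, the partner of cyclin E, at -0.78. CDKN2A, which holds the p16 inhibitor and is silent in many tumour lines, read 41.0, 38.5 and 42.1, close to the filter level.

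Target genes of the G1/S transition were lower together with stable Set8b. Of 34 listed genes 32 were measured. Of these, 21 were at least 2-fold lower than with vector and 0 were higher, where 5.11% and 5.74% of all genes were. By their brightest probe sets all 32 lay below 0, where 50.2% of all genes did. The 3 probe sets of GINS2 past the filter did not go together. They lay between -1.26, on the brightest, and 1.52, more than 2-fold higher. GINS2 is named after its values were seen. The median of the 32 was -1.16. MCM7 of the replicative helicase read 4853 under vector, 4246 under wild-type Set8b and 1548 under stable Set8b. CLSPN, a fork checkpoint gene, was at -1.59, CCNE2, cyclin E2, at -1.53 and the origin factor MCM10 at -1.52, and by other probe sets CLSPN was at -0.42 and MCM10 at -0.47. CCNE1, cyclin E1, stood apart from CCNE2 and read 1926, 2411 and 1920. Against wild-type Set8b the median was -1.11 and 18 of the 32 were at least 2-fold lower, where 5.23% of all genes were. With wild-type Set8b over vector the median was -0.19 and 0 were at least 2-fold lower, where 1.05% of all genes were. The E2F and DP genes had medians of -0.44, -0.35 and -0.13 in the same comparisons.

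Among promoters of the listed G1/S genes, 21 of the 29 with a window held at least 1 of the 5 motifs of the first search, a share of 72.4%, against 6.67% of all 27305 genes with a window. The list was made of known E2F targets, so this describes the list and does not test it. The pair of TTTCGCGG and TTGGCGC occurred in 0 of the 29. This 0 was fixed beforehand, since only the 3 activator windows that defined the pair held it. The shorter letters TTTCGCG and TTGGCG, in either order and on either strand, stood within 40 bases in 3 of the 29. That is a share of 10.3%, against 0.0916% of all genes with a window, among which are the 3 activators. These letters were cut from the pair seen at the activators and were searched in a list of known E2F targets. This share therefore also describes the list and tests nothing.

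Of 8 listed apoptotic target genes of E2F1, 5 were measured and 0 were at least 2-fold lower or higher with stable Set8b over vector. At 5.11% of all genes lower, a count of 0 among 5 does not set the list apart. The median was -0.36. The cell death gene BCL2L11 was at -0.62, with its 7 probe sets between -1.70 and -0.51. APAF1, an activator of caspases, was at -0.45, the p53 relative TP73 at -0.36 and the caspase gene CASP8 at 0.28. The median depends on the probe sets used. Without _x_at and _s_at probe sets 2 genes were measured, BCL2L11 passed 2-fold in the lower direction, and the median stood at -1.03 over vector and -1.08 over wild-type Set8b, beside -1.07 and -1.04 for the 23 G1/S genes then measured. Among the brightest 25% of probe sets it was 0.01 over vector, over 3 genes.

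Cofactors and degradation factors of E2F proteins were measured in 8 of 8 listed genes, and 2 were at least 2-fold lower over vector, where 5.11% of all genes were, with 0 higher and a median of -0.60. SKP2, part of a ubiquitin ligase and an E2F target, read 5082 under vector, 3979 under wild-type Set8b and 2107 under stable Set8b. HCFC1, a chromatin cofactor, was at -1.0024, at the threshold, with its other probe set at -2.09. TOPBP1, which binds E2F1, was at -0.89 and CCNF, the cyclin F gene, at -0.88. With arrays centred on their medians all 4 passed 2-fold, where 6.4% of all genes did, and without _x_at and _s_at probe sets, which leaves 5 genes, 0 did. The partners of E2F6 in its Polycomb complex, 9 measured of 10 listed, had 0 genes past 2-fold by their brightest probe sets and a median of -0.24. MGA was at -0.76, MAX at 0.50, RING1 at -0.50 and EPC1 at -0.41. The 5 probe sets of MAX lay between 0.44 and 1.12, and the 3 of MGA between -0.76 and -0.17.

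Against wild-type Set8b, 1 of the 7 pocket protein and MuvB genes was at least 2-fold lower, RBL1 at -1.09, where 5.23% of all genes were lower, and the median was -0.49. The direction of this median is not settled, since it turned to 0.18, with 0 of 5 genes lower, among the brightest 25% of probe sets. Of the 8 cofactors and degradation factors 1 was, CCNF at -1.11, with a median of -0.81. By their other probe sets CCNF was at -0.83 and HCFC1 at -1.62. With the mean over probe sets HCFC1 passed 2-fold in place of CCNF. Of the 11 upstream genes 2 were lower, CDKN1B at -1.24 and the inhibitor gene CDKN2D at -1.07, and 3 were higher, CDKN1A at 1.80, CCND1 at 1.47 and CCND2, cyclin D2, at 1.04, with a median of -0.25. Over all genes 4.96% were higher. The partners of E2F6 and the apoptotic targets had 0 genes past 2-fold and medians of -0.07 and -0.15. With wild-type Set8b over vector, 1 gene of these 5 lists passed 2-fold, CDKN2D at 1.01, from 68.5 under vector to 137.8. Of all genes 1.05% were lower and 1.67% higher in that comparison, so 1 gene is no result about the lists. CDKN2B, CDKN2D and CCND2 were named after their values were seen.

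**Figure D5:**
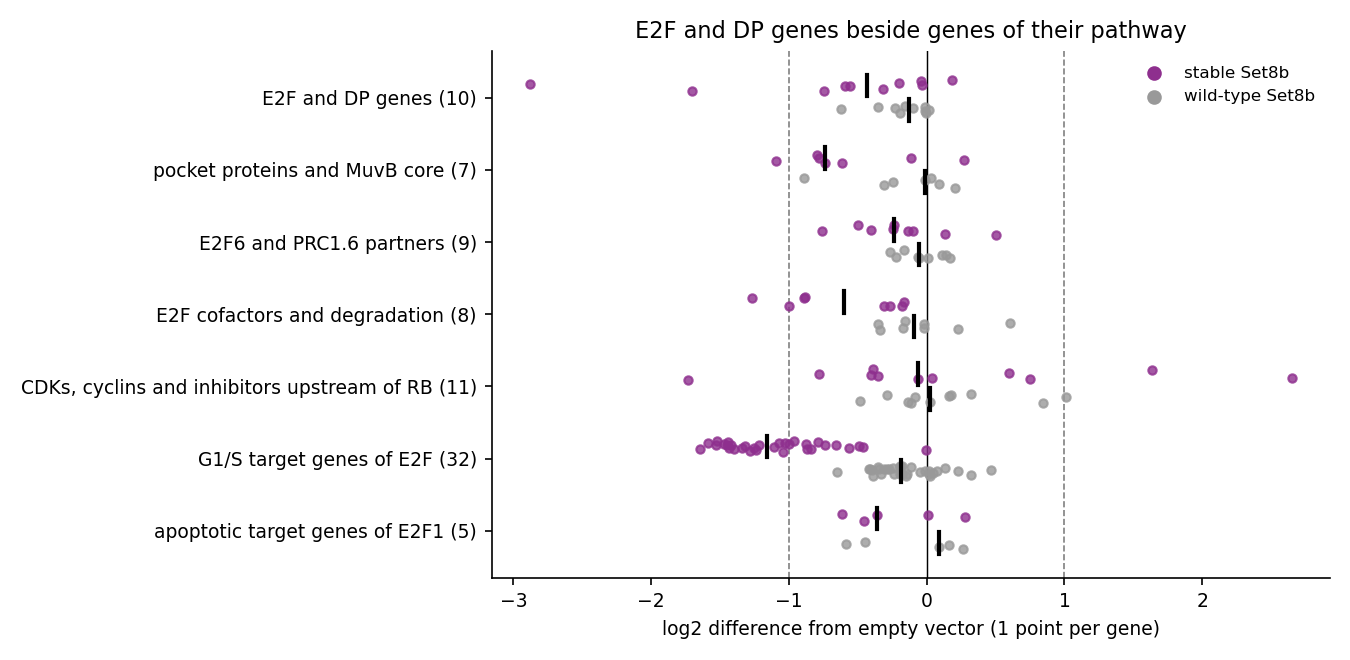
Log2 differences from the empty vector, 1 point per gene, for the 10 E2F and DP genes and 6 pathway lists, with stable Set8b in purple and wild-type Set8b in grey. Black bars are medians, dashed lines mark 2-fold and the number of measured genes is in parentheses. The G1/S targets have a median of -1.16 with stable and -0.19 with wild-type Set8b, while E2F and DP genes spread from -2.88 to 0.18 with stable Set8b.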

How the data were processed

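Trizol-extracted total RNA was labelled with biotin and put on Affymetrix arrays, per the labels' protocols. The authors deposited a linear intensity for each of 54675 probe sets, and each array had the same 2% trimmed mean of 250.0. Their software is not named in the labels. The members and lists were chosen with earlier results of these data known.

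Arrays were quantile normalized, since their log2 medians spanned 0.149, floored at the 20th percentile and taken to log2. The 62 control probe sets were left out. Genes were named from the platform annotation where a probe set had 1 symbol (41091 probe sets; 1801 had several and 11721 none), and all 22 member probe sets had the same symbol in RefSeq. The brightest probe set past the filter stood for a gene. Genes were counted at 2-fold. Named genes were all members, from each list the 4 genes that differed most between stable Set8b and vector, the 5 nearest to E2F8, KMT5A and CDKN1A. Cell type markers were named as whole lists, so VIM, COL1A2, BGLAP, PTPRC, CD14, LYZ and KRT5 fall outside this rule. The genes said to be named afterwards fall outside it too. Python 3.11.15, numpy 2.4.6, pandas 2.3.3 and matplotlib 3.10.9 were used, and the steps were tested on simulated data. Quantile normalization removes an overall shift between arrays, and background compresses differences of dim probe sets. Alternatives changed the normalization, floor, filter, probe set and fold.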

Additional observations from a re-analysis of the deposited data

How the results depend on the processing

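With 1 array per construct no array could be left out. No paired analysis was possible because each construct has 1 array. Of 12 alternatives, 1 was chosen after seeing the data: a filter at the median of probe sets with 1 symbol, which left out E2F5. E2F8 stayed between -2.98 and -2.87 and E2F2 between -1.82 and -1.71 for stable Set8b over vector, over the 10 alternatives that give such a value. Only the alternatives that changed the normalization moved these values. Each of the genes had 1 probe set past the filter, with signals above every floor used, so the other alternatives could not move them. No called value changed sign. Without _x_at and _s_at probe sets, which leaves out E2F3 and E2F5, the activator median was -1.13 over vector and -1.12 over wild-type Set8b, and 3 member probe sets, in place of 5, were at least 2-fold lower than with wild-type Set8b, beside 5.36% and 5.2% of all probe sets. At 1.5-fold 4 genes and 7 probe sets of the family were lower over vector, where 14.5% of all genes and 15.3% of all probe sets were. With wild-type Set8b over vector 1 gene, 1 probe set and 1 G1/S gene were, where 5.09% of all genes were, so that 1 of 10 is no result about the family. At 3-fold 3 family probe sets were lower over wild-type Set8b, beside 1.18% of all probe sets, and of the G1/S genes 2 were lower over vector and 0 over wild-type Set8b, beside 1.2% and 1.3% of all genes. With arrays centred on their medians the median of all genes moved to -0.11 for stable Set8b over vector and to -0.13 for wild-type Set8b over vector, and lower genes made up 57.1% of those past 2-fold for stable Set8b over vector, against 47.1%, and 51.2% for wild-type Set8b over vector, 38.5% in the main setting. With values as deposited the latter share was 27.8%. For stable Set8b over vector the number of all genes at least 2-fold lower was 646, against 1811 without the filter, 321 when the brightest 25% of probe sets were kept, 1837 at 1.5-fold and 151 at 3-fold, where the construction changes how many genes can count. Of 615 other values, for single genes and the other lists, 576 moved by less than the SD between probe sets or, for counts, by at most 1.5 times. Other causes of the moves were not tested. Signal over background limits the dim probe sets of E2F2, E2F5, E2F7 and TFDP2.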
